A study of Sus scrofa with 8 samples.

Results

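Genes encoding ligands and receptors of the transforming growth factor beta (TGF-beta) and bone morphogenetic protein (BMP) family were examined in cultured islets of 7-day-old pigs and set against those of 3-day-old pigs. The members were 10 genes chosen by symbol, namely the ligands TGFB1, TGFB2, TGFB3, BMP2, INHBA and INHBB and the receptors TGFBR1, TGFBR2, TGFBR3 and BMPR1B. Of these, 8 had at least 1 probe set carrying only their symbol in the platform annotation, or 8 of the 6964 genes so annotated, which gave 18 of the 23999 probe sets other than controls. A probe set is a set of short DNA probes to 1 transcript whose signals are combined into 1 intensity, and the probe sets of a gene are numbered here from the brightest, by mean log2 intensity over all arrays. BMP2 and TGFBR2 had no such probe set and were not analysed here. The islets came from male Duroc/Large White cross neonatal pigs, with 4 pigs labelled 7-day-old and 4 labelled 3-day-old and 1 Affymetrix porcine GeneChip array for each pig without pooling. Pancreases of both ages were digested with collagenase, and the islets of both ages were then cultured for 7 days with glucose, isobutylmethylxanthine, which raises cyclic AMP, and nicotinamide. The arrays thus read islets after culture, and they read all cell types of the preparation together.

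TGF-beta family ligands are secreted dimers that bring together type II and type I receptor kinases on the target cell. TGF-betas and activins act mainly through phosphorylated SMAD2 and SMAD3, and BMPs mainly through SMAD1, SMAD5 and SMAD8. These join SMAD4 and enter the nucleus, where BMP signals raise the ID genes and TGF-beta signals raise many matrix genes. TGF-betas are stored in the matrix in a latent form, and follistatins and small proteoglycans hold ligands away from their receptors. In the pancreas the family is known for its part in endocrine differentiation and beta cell function, and for the activation of stellate cells, the matrix-producing cells of the organ.

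The intensities had been scaled so that the trimmed mean was the same in every array, and array medians lay between 171.6 and 178.5. The direction of every difference follows the deposited sample labels, and the groups are named by them. For TGFB1 and BMPR1B it is opposite to the direction in the study's own tables. So it is for DCN, RGS5, C1R and HSD11B1, which are described below, and for the markers PECAM1, CDH5, CPB1, NEUROD1 and PCSK2. Every gene counted or named here that is also in the study's tables ran opposite to them on the probe set given there. The summed RNA signal of the leukocyte markers below also ran opposite to the study's flow cytometry of islets of the same ages, which counted cells by surface protein. Of these 11 markers 10 had differences below 0 and 1 was called. PTPRC, the gene of the CD45 protein counted there, was not called (limma, adjusted p = 0.727). Whether the labels of the arrays are exchanged was not settled here. Of 21574 probe sets tested with limma, 10.7% passed an adjusted p of 0.05, with 5.47% lower and 5.21% higher in islets labelled 7-day-old. The endocrine hormones that define islets were bright at both ages, and insulin (INS) lay between 19881 and 29628 in islets labelled 7-day-old and between 21868 and 27189 in islets labelled 3-day-old.

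Of the 17 member probe sets tested, 4 were lower in islets labelled 7-day-old and 0 were higher by limma, beside 5.47% lower and 5.21% higher among all probe sets tested. The 4 were both probe sets of TGFB1, 1 of TGFB3 and 1 of BMPR1B. At an unadjusted p under 0.05 limma gave 6 lower and 0 higher, and the unpaired test of the methods with the same adjustment gave 3 lower and 0 higher. Over all 21574 probe sets tested, 6017 had an unadjusted p under 0.05 in either direction by limma. The unpaired test called 1078 of the 21574 lower and 1047 higher. The log2 difference (7-day-old minus 3-day-old) was below 0 in 14 of the 17, and the 3 above 0 were all probe sets of TGFBR1. The median was -0.44, beside a median of -0.000779 over all probe sets tested. In 5 of the 17 the values of the 2 ages did not overlap, each time with the 7-day-old values lower, beside 21.2% of all probe sets tested and 10.3% with the 7-day-old values lower. Leaving out 1 array at a time gave between 1 and 4 calls. The count was 1 without 3-day-old replicate 2, without 3-day-old replicate 3 and without 7-day-old replicate 2, and 2 without 3-day-old replicate 1 and without 7-day-old replicate 3.

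**Figure D1:**
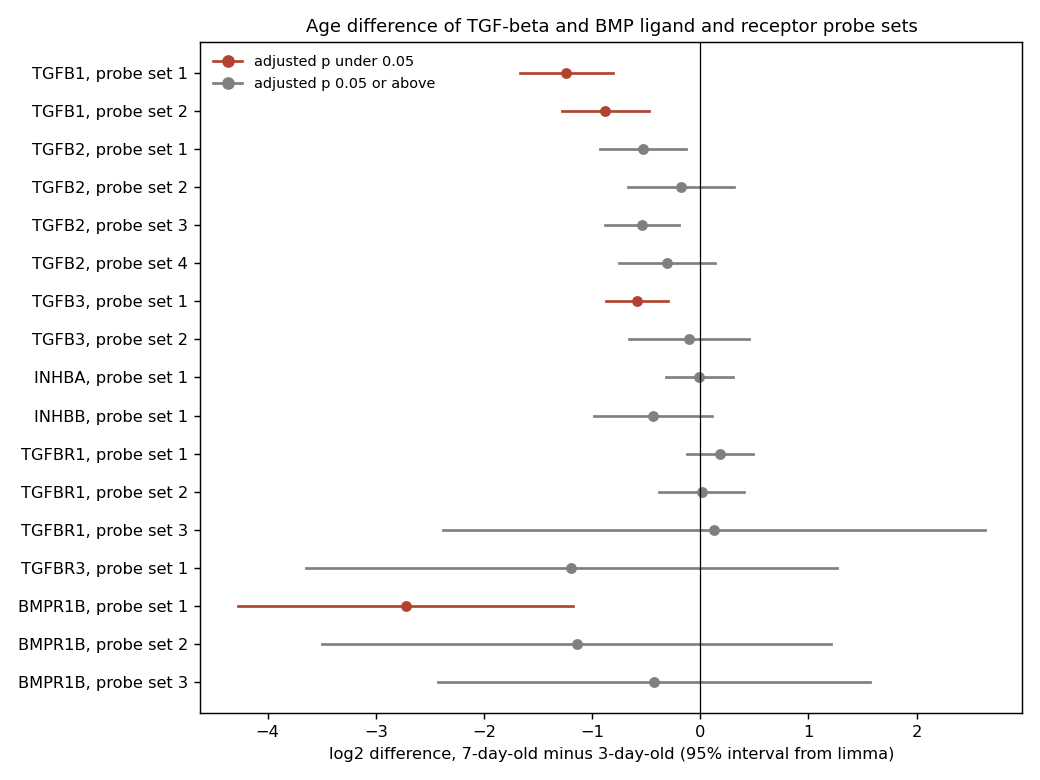
Difference of mean log2 intensity, islets labelled 7-day-old minus islets labelled 3-day-old, for the 17 member probe sets tested (4 arrays for each age); bars are 95% intervals from limma and red marks an adjusted p under 0.05. The 4 red points, from TGFB1, TGFB3 and BMPR1B, all lie left of 0, and the widest bars belong to dim probe sets of TGFBR1, TGFBR3 and BMPR1B.

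Markers of several cell types differed between the ages alongside these genes. The counts called stand beside 7.15% lower and 5.03% higher among all 6545 genes tested, each by its brightest probe set. The summed intensity of 11 endothelial markers ranged from 777 to 987 in islets labelled 7-day-old and from 1929 to 2456 in islets labelled 3-day-old, and 5 of the 11 were lower and 0 higher. Of these 5, TIE1 reached the 20th percentile of its array in 0 of the 7-day-old and 4 of the 3-day-old arrays. It thus passed the filter on dim probe sets through the 3-day-old arrays alone. For 10 fibroblast and stellate markers the sums were 20313 to 22786 in islets labelled 7-day-old and 28646 to 36057 in islets labelled 3-day-old, with 4 lower and 0 higher. Most of these sums came from VIM, which encodes vimentin, is not specific to fibroblasts and was not called (limma, adjusted p = 0.0637). Without it, a check made after the values had been seen, the other 9 summed to 4786 to 7995 in islets labelled 7-day-old and 9386 to 12974 in islets labelled 3-day-old. The 8 pericyte and smooth muscle markers summed to 3368 to 4342 in islets labelled 7-day-old and 5298 to 9207 in islets labelled 3-day-old, with 3 lower and 0 higher. In these 3 lists every 7-day-old sum lay below every 3-day-old sum. Macrophage and leukocyte markers, with 11 tested, summed to 392 to 593 in islets labelled 7-day-old and 626 to 1490 in islets labelled 3-day-old, again without overlap. Of these 11, 1 was lower and 0 higher, which is near the share over all genes. No marker tested was at 0 in any array, but several were dim. PTPRC, which encodes the leukocyte common antigen CD45, reached the 20th percentile in 1 of the 8 arrays. So did CD2 and the acinar marker CELA2A, and ITGAM reached it in 3. Of 13 endocrine markers 6 were higher and 0 lower, with sums of 171439 to 210649 in islets labelled 7-day-old and 147113 to 183216 in islets labelled 3-day-old. None of the hormone genes INS, GCG, SST and PPY was called (limma, adjusted p = 0.795, 0.491, 0.669 and 0.466). Duct markers had 2 lower of 7 and acinar markers 1 lower of 6, and the sums overlapped between the ages for duct, acinar and endocrine markers. Left out in the same way, SPP1, the brightest duct gene, gave duct sums of 26015 to 27850 in islets labelled 7-day-old and 27927 to 30982 in islets labelled 3-day-old, without overlap but close together. Most of these sums came from EPCAM and ANXA4, neither of which was called (limma, adjusted p = 0.694 and 0.643). In these bulk samples fewer cells of a type and less RNA per cell cannot be told apart, and the part of these cell types in the results below was not tested.

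TGFB1, which encodes the most widely expressed TGF-beta ligand, was lower in islets labelled 7-day-old in both of its probe sets. Probe set 1 read 174.7, 116.8, 103.6 and 143.8 in islets labelled 7-day-old, against 262.7, 326.8, 368.3 and 297.3 in islets labelled 3-day-old. All 7-day-old values lay below all 3-day-old values, and the highest 7-day-old array, replicate 1, was well under the lowest 3-day-old array, also replicate 1. The means were 134.7 ± 31.5 for 7-day-old and 313.7 ± 44.8 for 3-day-old (SD, n = 4 each), a log2 difference of -1.24 ± 0.186 (SE), or 2.36-fold lower (limma, adjusted p = 0.00991). Its 95% interval ran from -1.67 to -0.80. Leaving out any 1 array kept the call, with differences between -1.37 and -1.12.

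Probe set 2 of TGFB1 read 74.6, 54.0, 51.5 and 72.1 in islets labelled 7-day-old, against 93.6, 109.2, 135.1 and 123.3 in islets labelled 3-day-old. The ages did not overlap here either. Replicate 1 was again the highest of the 7-day-old arrays and replicate 3 again the highest of the 3-day-old arrays. The means were 63.1 ± 11.96 for 7-day-old and 115.3 ± 17.9 for 3-day-old (SD, n = 4 each), and the log2 difference was -0.88 ± 0.173 (SE), 1.84-fold lower (limma, adjusted p = 0.0219). The call was lost without any one of replicates 2 and 3 of the 3-day-old pigs and replicate 2 of the 7-day-old pigs, with an adjusted p of up to 0.0624.

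TGFB3, a close relative of TGFB1, was lower in 1 of 2 probe sets. Probe set 1 read 201.7, 162.5, 156.8 and 148.1 in islets labelled 7-day-old, against 242.1, 237.1, 285.1 and 235.0 in islets labelled 3-day-old. The ages did not overlap, and 3-day-old replicate 3 stood above the other 3 arrays of its age. The log2 difference was -0.58 ± 0.124 (SE), with means of 167.3 ± 23.7 for 7-day-old and 249.8 ± 23.7 for 3-day-old (SD, n = 4 each; limma, adjusted p = 0.0277). The call was lost without any of 3-day-old replicates 1, 2 and 3 or 7-day-old replicates 2, 3 and 4, with an adjusted p of up to 0.0742. Probe set 2 read 52.0, 63.9, 84.8 and 52.7 in islets labelled 7-day-old and 45.5, 79.5, 82.9 and 66.5 in islets labelled 3-day-old. The ages overlapped throughout, with a difference of -0.11 (95% interval -0.66 to 0.45; limma, adjusted p = 0.814).

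None of the 4 probe sets of TGFB2, which encodes the remaining TGF-beta ligand, passed the limma threshold, although 2 of them did at an unadjusted p under 0.05. Probe set 1 read 162.5, 170.2, 239.5 and 177.7 in islets labelled 7-day-old, against 334.5, 279.0, 239.5 and 227.8 in islets labelled 3-day-old. The ages overlapped through 7-day-old replicate 3, and the log2 difference was -0.53 (95% interval -0.93 to -0.13; limma, adjusted p = 0.0931). With a stricter filter on dim probe sets it passed, at an adjusted p of 0.0333. Probe set 3 read 71.9, 68.9, 90.7 and 80.7 in islets labelled 7-day-old, against 138.9, 117.3, 102.5 and 96.0 in islets labelled 3-day-old. These values did not overlap, with a difference of -0.54 (95% interval -0.88 to -0.19; limma, adjusted p = 0.0586), which passed with array weights at 0.0348.

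Probe sets 2 and 4 of TGFB2 overlapped between the ages. Probe set 2 read 244.6, 179.7, 228.0 and 185.6 in islets labelled 7-day-old and 353.3, 215.9, 196.1 and 205.3 in islets labelled 3-day-old, a difference of -0.18 (limma, adjusted p = 0.63). Probe set 4 read 82.4, 54.2, 71.2 and 44.3 in islets labelled 7-day-old and 74.8, 73.9, 80.6 and 74.4 in islets labelled 3-day-old, a difference of -0.31 (limma, adjusted p = 0.343). The 3-day-old replicate 1 was the highest array of its age in 3 of the 4 TGFB2 probe sets, whereas replicate 3 of that age was highest for both probe sets of TGFB1.

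**Figure D2:**
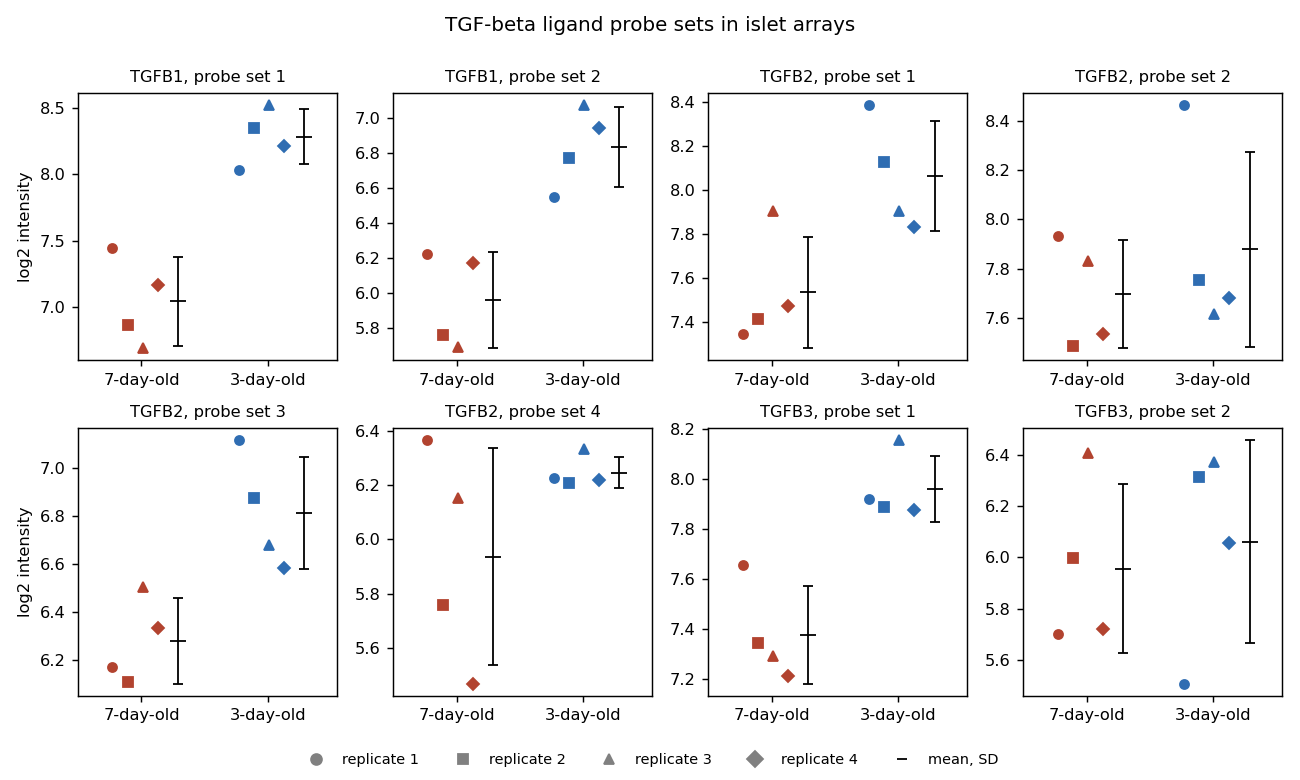
Intensity on the log2 scale in each array for the 8 probe sets of TGFB1, TGFB2 and TGFB3, with islets labelled 7-day-old on the left and islets labelled 3-day-old on the right of each panel; points are arrays, bars give the mean and SD over 4 arrays, and each panel has its own scale. The ages separate in both TGFB1 panels and in 1 panel each of TGFB2 and TGFB3, and overlap in the other 4.

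The balance between the 3 TGF-beta ligands was compared within arrays, as the log2 ratio of their brightest probe sets. This comparison was chosen after the single values had been seen, and since probe sets differ in response only the change of a ratio between the ages can be read. The log2 ratio of TGFB1 to TGFB3 averaged -0.33 ± 0.252 in islets labelled 7-day-old and 0.32 ± 0.146 in islets labelled 3-day-old (SD, n = 4 each). It was lower in every 7-day-old array than in any 3-day-old array, with a difference of -0.65 (exact permutation test, two-sided, p = 0.0286, adjusted over 3 ratios p = 0.0858). The raw p is the smallest that 4 arrays against 4 allow. The ratio of TGFB1 to TGFB2 differed by -0.71 with overlapping ages (exact permutation test, two-sided, p = 0.0857, adjusted p = 0.129), and that of TGFB3 to TGFB2 by -0.06 (exact permutation test, two-sided, p = 0.829). After adjustment no ratio differed beyond the threshold. The ratios rest on 1 probe set for each gene. Probe sets 1 and 2 of TGFB2 were nearly equal in mean log2 intensity, 7.797 and 7.789, but their age differences were -0.53 and -0.18. Ratios with the other probe sets were not tested.

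INHBA, which encodes the subunit of activin A, showed nearly equal means at the 2 ages. Its probe set read 342.2, 360.1, 458.8 and 452.5 in islets labelled 7-day-old and 422.4, 425.0, 347.9 and 420.5 in islets labelled 3-day-old. The lowest 3-day-old array, replicate 3, lay among the lower 7-day-old arrays, and the difference was -0.01 with a 95% interval of -0.32 to 0.30 (limma, adjusted p = 0.974). INHBB, which encodes the related subunit of activin B, was dim. Probe set 1 read 18.2, 37.3, 29.4 and 36.2 in islets labelled 7-day-old and 34.4, 38.5, 46.5 and 39.5 in islets labelled 3-day-old, and it reached the 20th percentile of its array in 2 of the 7-day-old and all 4 of the 3-day-old arrays. Its difference was -0.44 (95% interval -0.99 to 0.11; limma, adjusted p = 0.276). Probe set 2 of INHBB lay between 2.6 and 22.0 in islets labelled 7-day-old and between 2.1 and 5.7 in islets labelled 3-day-old, below the 20th percentile in all 8 arrays, and was not tested.

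Of the receptors, TGFBR1, the type I receptor kinase for TGF-betas, was read brightly by 1 probe set. Probe set 1 read 2208, 2252, 2155 and 2156 in islets labelled 7-day-old and 1534, 2219, 2188 and 1877 in islets labelled 3-day-old. The 7-day-old arrays lay close together, with 2 of the 3-day-old arrays below them and 2 among them, and the difference was 0.18 (95% interval -0.12 to 0.48; limma, adjusted p = 0.414). Probe set 2 read 75.0, 100.6, 69.8 and 75.1 in islets labelled 7-day-old and 71.0, 102.6, 70.8 and 73.9 in islets labelled 3-day-old, a difference of 0.01 (95% interval -0.38 to 0.41). In both ages replicate 2 was the highest array. Probe set 3 lay between 2.2 and 38.6 in islets labelled 7-day-old and between 2.8 and 24.8 in islets labelled 3-day-old and reached the 20th percentile in 1 array, and its interval, -2.38 to 2.63, spanned large changes in either direction. TGFBR3, a co-receptor also called betaglycan that presents TGF-betas to the type II receptor, was near the lower end as well. Its probe set read 3.1, 4.0, 38.8 and 22.7 in islets labelled 7-day-old and 9.2, 71.0, 47.7 and 9.7 in islets labelled 3-day-old, with 3 of the 8 arrays at or above the 20th percentile. The difference was -1.19 with an interval of -3.65 to 1.26 (limma, adjusted p = 0.512).

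BMPR1B, a type I receptor kinase for BMPs, was lower in islets labelled 7-day-old in 1 of 3 probe sets and had the largest difference among the members. Probe set 1 read 34.1, 8.3, 4.6 and 29.1 in islets labelled 7-day-old, against 110.2, 98.9, 118.9 and 55.5 in islets labelled 3-day-old. The ages did not overlap, and the probe set reached the 20th percentile in all 4 of the 3-day-old arrays but in 2 of the 7-day-old arrays. Means were 19.0 ± 14.8 for 7-day-old and 95.9 ± 28.1 for 3-day-old (SD, n = 4 each), with a log2 difference of -2.72 ± 0.667 (SE; 95% interval -4.28 to -1.17; limma, adjusted p = 0.0421). The size depended on the log2 offset at these low intensities, and the difference was -1.74 when 16 was added to each value (limma, adjusted p = 0.0145). The call was lost without any one of the 3-day-old arrays or of 7-day-old replicates 2 and 3, with an adjusted p of up to 0.104, and also without the filter on dim probe sets (0.0524), with the unpaired test of the methods (0.0754) and after quantile normalization (0.0537).

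The other probe sets of BMPR1B were dim at both ages. Probe set 2 read 17.0, 2.1, 32.0 and 29.8 in islets labelled 7-day-old and 39.2, 65.9, 41.1 and 7.8 in islets labelled 3-day-old, a difference of -1.14 (95% interval -3.49 to 1.21; limma, adjusted p = 0.512). Probe set 3 lay between 2.8 and 17.8 in islets labelled 7-day-old and between 3.3 and 35.0 in islets labelled 3-day-old, with 1 array at or above the 20th percentile and a difference of -0.43 (95% interval -2.43 to 1.57; limma, adjusted p = 0.79). The interval of probe set 2 includes the difference of probe set 1, whereas that of probe set 3 does not.

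The rest of the pathway was followed in 5 lists of 107 further genes, of which 40 were tested, each by its brightest probe set. Of the 40 genes, 11 were lower and 1 higher in islets labelled 7-day-old, or 27.5% lower, beside 7.15% lower and 5.03% higher among all 6545 genes tested. The difference was below 0 in 34 of the 40, with a median of -0.43 beside -0.0236 over all genes. Among the 33 that were in none of the cell type marker lists, 8 were lower and 1 higher, with a median of -0.39. The count of 12 ranged from 7 to 14 when 1 array was left out at a time, with 7 without 3-day-old replicate 3, and was 21 with a stricter filter and 22 with an intensity trend in the variance. Counts at an unadjusted p under 0.05 in the lists below stand beside 6017 of all 21574 probe sets tested, in either direction. Counts by the unpaired test of the methods stand beside 1078 lower and 1047 higher among the same probe sets. Neither share is given here over genes by their brightest probe set.

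The nuclear and cytoplasmic part of the pathway held 5 tested genes, of which 2 were lower. PMEPA1, a TGF-beta target that restrains SMAD2 and SMAD3 signalling, read 1902, 2010, 1742 and 1766 in islets labelled 7-day-old, against 2966, 3175, 4233 and 3630 in islets labelled 3-day-old. Its ages did not overlap, the difference was -0.91 ± 0.128 (SE; limma, adjusted p = 0.00847), and all 5 of its probe sets were lower, with differences of -1.10 to -0.87. SMAD3, the signal transducer of TGF-betas and activins, read 166.7, 154.6, 153.4 and 148.1 in islets labelled 7-day-old, against 267.6, 196.7, 212.5 and 204.6 in islets labelled 3-day-old, a difference of -0.49 ± 0.115 (SE; limma, adjusted p = 0.0368). It did not overlap either, although the call was lost when any array other than 3-day-old replicate 1 was left out (adjusted p up to 0.09). SMAD4, the partner of the receptor-regulated SMADs, had a difference of 0.15 (limma, adjusted p = 0.323).

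Of the BMP axis, SMAD1, which carries BMP signals, read 1890, 2069, 2094 and 1305 in islets labelled 7-day-old, against 2659, 2648, 2496 and 2366 in islets labelled 3-day-old. BMP4, a BMP ligand, read 286.5, 255.2, 426.1 and 348.7 in islets labelled 7-day-old, against 547.9, 516.9, 481.0 and 425.8 in islets labelled 3-day-old. Neither passed the limma threshold, with -0.49 (adjusted p = 0.0966) for SMAD1, whose ages did not overlap, and -0.60 (adjusted p = 0.067) for BMP4, whose ages overlapped by 1 array. These 2, SMAD4, BMPR1A, ID4, COL1A2 and the uncalled matrix genes named below were picked for description after their values had been seen. Another type I receptor for BMPs, BMPR1A, differed by 0.11 (limma, adjusted p = 0.537).

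Of the 13 target genes tested, 5 were lower and 0 higher by limma (9 lower and 0 higher at an unadjusted p under 0.05, and 5 and 0 by the unpaired test of the methods). Among them were 3 ID genes, inhibitors of helix-loop-helix transcription factors that BMP signals induce. ID1 read 847.3, 657.0, 978.3 and 952.6 in islets labelled 7-day-old, against 1975, 1464.5, 1942 and 1455 in islets labelled 3-day-old, a difference of -0.99 ± 0.173 (SE; limma, adjusted p = 0.0153). ID2 read 69.0, 46.7, 96.9 and 58.6 in islets labelled 7-day-old, against 229.0, 182.3, 147.4 and 163.1 in islets labelled 3-day-old, a difference of -1.45 ± 0.241 (SE; limma, adjusted p = 0.0135). ID3 read 581.5, 474.7, 679.1 and 672.2 in islets labelled 7-day-old, against 1274, 1089, 1494.5 and 1167 in islets labelled 3-day-old, a difference of -1.07 ± 0.154 (SE; limma, adjusted p = 0.00879). None of the 3 overlapped between the ages, replicate 2 was the lowest 7-day-old array in each, and each kept its call without any 1 array. The fourth member of the family, ID4, had a difference of -0.27 (limma, adjusted p = 0.165).

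**Figure D3:**
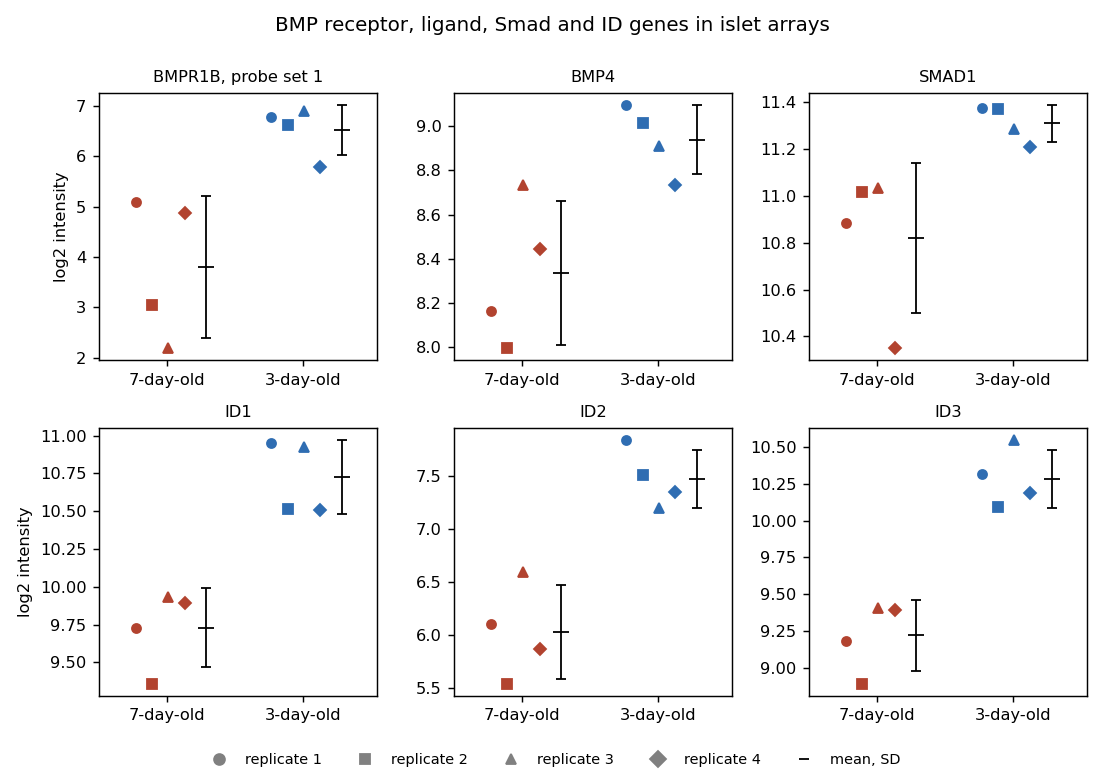
Intensity on the log2 scale in each array for BMPR1B (probe set 1), BMP4, SMAD1, ID1, ID2 and ID3, with islets labelled 7-day-old on the left and islets labelled 3-day-old on the right; points are arrays, bars give the mean and SD over 4 arrays, and each panel has its own scale. The ages separate in every panel except that of BMP4, and the 7-day-old arrays of BMPR1B spread most, from 4.6 to 34.1 in intensity.

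Another target called was TAGLN, an actin-binding protein of smooth muscle and activated stellate cells. It read 627.6, 561.3, 478.4 and 468.4 in islets labelled 7-day-old, against 873.9, 832.5, 979.9 and 867.9 in islets labelled 3-day-old. The ages did not overlap, with a difference of -0.74 ± 0.120 (SE; limma, adjusted p = 0.0124). The fifth target called was COL1A2, a chain of type I collagen (difference -0.71; limma, adjusted p = 0.0473). The matrix genes FN1, POSTN, SPARC and COL3A1 were not called, with differences of -0.61, -0.59, -0.29 and 0.11 (limma, adjusted p = 0.103, 0.339, 0.0594 and 0.896). TAGLN is also in the pericyte and smooth muscle list above and COL1A2 in the fibroblast and stellate list, and the summed intensities of both lists were lower in islets labelled 7-day-old.

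Extracellular regulators were lower in 4 of 8 tested genes and higher in 0 by limma (7 lower and 0 higher at an unadjusted p under 0.05, and 4 and 0 by the unpaired test of the methods). BMP1 and THBS1 were not called by their brightest probe sets, but 1 of 2 probe sets of BMP1 and 1 of 5 of THBS1 were lower. The differences of the 5 THBS1 probe sets ran from -0.79 to 0.26. Decorin (DCN), a small proteoglycan that binds TGF-beta, read 497.7, 323.8, 256.3 and 191.0 in islets labelled 7-day-old, against 1925, 1007.5, 1242 and 971.0 in islets labelled 3-day-old. Its difference of -2.05 ± 0.335 (SE; limma, adjusted p = 0.0126) was the largest of the 40 genes, and it is also a fibroblast marker. Fibrillin-1 (FBN1), the microfibril protein to which latent TGF-beta complexes attach, read 583.8, 575.6, 427.6 and 451.1 in islets labelled 7-day-old, against 910.7, 1041, 927.0 and 1083 in islets labelled 3-day-old, a difference of -0.97 ± 0.135 (SE; limma, adjusted p = 0.00811). The ages did not overlap for either gene, and both probe sets of FBN1 were lower.

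Follistatin (FST) and follistatin-like 3 (FSTL3) bind and neutralise activins. Of the activin subunit genes, INHBA had nearly equal means, and the dim probe set 1 of INHBB was at -0.44 (95% interval -0.99 to 0.11). FST read 204.9, 208.5, 176.1 and 192.7 in islets labelled 7-day-old, against 448.0, 296.3, 422.6 and 293.8 in islets labelled 3-day-old, a difference of -0.88 ± 0.167 (SE; limma, adjusted p = 0.02) that was not called without 3-day-old replicate 3 (0.0545). FSTL3 read 544.0, 549.1, 548.9 and 475.3 in islets labelled 7-day-old, against 684.5, 714.6, 803.1 and 696.5 in islets labelled 3-day-old, a difference of -0.45 ± 0.0929 (SE; limma, adjusted p = 0.0251). The ages did not overlap for either. Both probe sets of FST and 1 of 2 of FSTL3 were lower, and the FSTL3 call was lost without 3-day-old replicates 2 or 3 or 7-day-old replicates 1, 2 or 4 (adjusted p up to 0.0629).

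Of 8 other receptors and co-receptors, 0 were lower and 0 higher by limma (4 lower and 0 higher at an unadjusted p under 0.05, and 1 and 0 by the unpaired test of the methods). These counts use the brightest probe set of each gene, and the dimmer 1 of 2 probe sets of ACVR1 was lower, at -0.51. Endoglin (ENG), a co-receptor of endothelial cells and 1 of the 11 endothelial markers above, read 133.2, 108.4, 101.3 and 122.5 in islets labelled 7-day-old, against 129.1, 236.8, 221.1 and 215.9 in islets labelled 3-day-old. Only 3-day-old replicate 1 overlapped the 7-day-old arrays, and the difference of -0.76 ± 0.206 (SE; limma, adjusted p = 0.0576) passed the threshold without that array, at 0.0156. The activin receptor ACVR2A had a difference of -0.37 (limma, adjusted p = 0.141). The dimmer 1 of its 2 probe sets went the other way, at 0.39, and was not called. Of 6 other ligands tested, 1 was higher and 0 lower (1 higher and 2 lower at an unadjusted p under 0.05, and 1 higher and 0 lower by the unpaired test of the methods). It was GDF9, known as a growth factor of the oocyte, at 309.8, 296.1, 270.0 and 255.8 in islets labelled 7-day-old, against 215.8, 214.5, 225.0 and 228.5 in islets labelled 3-day-old. All 7-day-old values lay above all 3-day-old values, by 0.35 ± 0.0891 (SE; limma, adjusted p = 0.0461), and the call was lost when any array other than 7-day-old replicate 4 was left out (adjusted p up to 0.116). Another of these ligands, GDF11, was not called by its brightest probe set (-0.27), but the dimmer 1 of its 2 probe sets was lower, at -1.30.

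**Figure D4:**
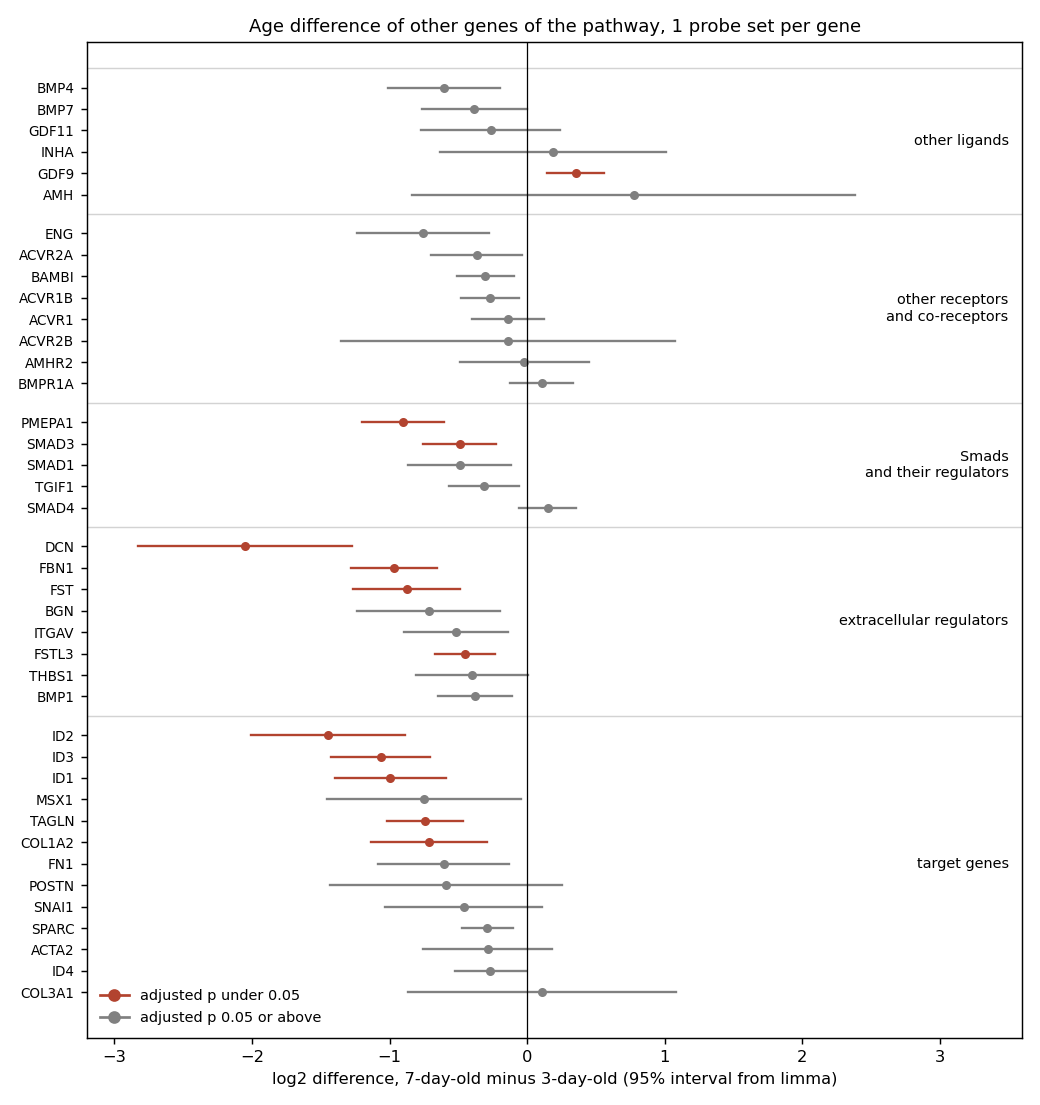
Difference of mean log2 intensity, islets labelled 7-day-old minus islets labelled 3-day-old, for the 40 pathway genes tested, grouped by list (4 arrays for each age); bars are 95% intervals from limma and colour marks an adjusted p under 0.05. The genes called lie left of 0 apart from GDF9, and DCN lies farthest left at -2.05.

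The 5 genes whose pattern over the 8 arrays was closest to that of TGFB1 probe set 1 were RGS5, C1R, LGALS1, FKBP10 and HSD11B1. Likeness was measured as the root mean square difference of log2 profiles centred on their mean, over 5681 probe sets with 1 symbol and above-median intensity, whose own median was 0.679. RGS5, a regulator of G protein signalling and 1 of the 8 pericyte and smooth muscle markers above, was nearest at 0.133, and C1R, a protease of the complement cascade, followed at 0.152. LGALS1, which encodes the lectin galectin-1, was at 0.180, FKBP10, which assists collagen folding, at 0.189, and HSD11B1, which regenerates active glucocorticoid, at 0.190. Their log2 differences lay between -1.42 for RGS5 and -1.05 for LGALS1, beside -1.24 for TGFB1. This likeness includes the difference between the ages itself and is a description over 8 arrays.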

How the data were processed

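Islet RNA of 8 pigs was amplified and hybridised by the authors to the Affymetrix porcine GeneChip, with an extra round of amplification for low yields in samples that are not named. The deposited table holds 1 linear intensity for each probe set in each array, scaled by the authors to an equal mean after trimming 2% at each end. The software that summarised them is, for this step, not given in the sources used here. Intensities below 1 were set to 1 (1528 values) and log2 was taken. Probe sets that reached the 20th percentile of their array in at least 1 of 8 arrays were tested, which left 21574 of 23999, controls excluded. The platform annotation gave 1 symbol to 10069 probe sets, several to 198 and none to 13732, and only those with 1 symbol were named. Ages were compared over all 8 arrays, without covariates as in the unpaired design of the methods, with limma 3.58.1 under R 4.3.3. Moderated two-sided tests were adjusted by Benjamini-Hochberg over the probe sets tested, with a threshold of 0.05. The fit was also run on simulated arrays with means and spreads taken from these data, and its results there are not reported here. The brightest probe set stood for its gene in the lists. Python 3.11.15 with pandas 2.3.3, numpy 2.4.6, scipy 1.17.1 and matplotlib 3.10.9 served for summaries and plots.

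Named were every member probe set, in each pathway list up to 4 called genes with the largest difference (2 where none was called), and the 5 profiles nearest to TGFB1. The members and lists were chosen with earlier results of these data known. The labels give each array as a separate pig. Replicate numbers did not pair the arrays (residual correlations -0.0135 to 0.00487). Precision is limited by the number of arrays, and a log2 difference had a median SE of 0.169. Alternatives were no filter, a stricter filter (50th percentile in at least 4 arrays), robust variances with an intensity trend, the unpaired test of the methods, median centring, quantile normalization, array weights, an offset of 16, the replicate number as a block, the mean of all probe sets of a gene, and each array left out. Sequences and positions are not given.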

Additional observations from a re-analysis of the deposited data

Results flagged for a closer look

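In 5 of 34 groups of 4 arrays, 1 array stood apart from the other 3 of its age by a gap above the 95% critical value of Dixon's test, where chance gives about 1.7. All 5 were islets labelled 3-day-old. For TGFB2 (probe set 2), 3-day-old replicate 1 read 353.3, beside 196.1 to 215.9 in the others. For TGFB2 (probe set 4), 3-day-old replicate 3 read 80.6, beside 73.9 to 74.8. The same replicate read 285.1 for TGFB3 (probe set 1), beside 235.0 to 242.1, and was the lowest for INHBA, with 347.9 beside 420.5 to 425.0. For TGFBR1 (probe set 2), 3-day-old replicate 2 read 102.6, beside 70.8 to 73.9.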

How the results depend on the processing

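Calls at the limma threshold rested on the spread among 4 arrays for each age. The replicate number as a block gave 0 calls in all 21574 probe sets, with 0 of the 17 member probe sets and 0 of the 40 pathway genes, although 5264, 5 and 22 had an unadjusted p under 0.05. The labels' numbers did not pair the arrays. Member calls were 4 by default, 5 with array weights, and 3 with no filter, with the stricter filter (of 6 tested), with the unpaired test of the methods and with quantile normalization. Without 1 array they ranged from 1 to 4. Member probe sets without overlap were 5, or 2 of 6 under the stricter filter, and from 5 to 7 without 1 array. Pathway calls were 12, or 21 with the stricter filter, 22 with the intensity trend and 7 to 14 without 1 array. Calls over all probe sets were 2305, or 3491 with the intensity trend, and 1020 to 1877 without 1 array, with 1020 without 7-day-old replicate 2, 1059 without 3-day-old replicate 3, 1078 without 3-day-old replicate 2, 1128 without 7-day-old replicate 1 and 1430 without 7-day-old replicate 4. Among 494 alternative values of 30 named differences, 416 kept direction and side of the threshold, 58 were no longer called, 5 became called and 15 turned direction. The 15 came from 5 probe sets. With array weights TGFBR1 (probe set 3) was at -0.093. Without 1 array the differences ranged from -0.27 to 0.014 for TGFB2 (probe set 2), -0.080 to 0.066 for INHBA, -0.10 to 0.14 for TGFBR1 (probe set 2), -0.44 to 0.84 for TGFBR1 (probe set 3) and -1.0 to 0.078 for BMPR1B (probe set 3). TGFB1 probe set 1 was called under every alternative except the block (adjusted p = 0.079). GDF9 was also not called with no filter (0.0591), the intensity trend (0.0644), median centring (0.052), quantile normalization (0.0528) and the offset (0.0508), and ENG was called with the trend (0.0251) and the offset (0.0463). The cause of these changes was not tested. Probe sets near the lower end of the arrays, those of TGFBR3, INHBB and 2 of BMPR1B, limit what can be said of those genes. Probe set 3 of TGFBR1 was near it as well. The called probe set 1 of BMPR1B reached the 20th percentile in 2 of the 7-day-old and 4 of the 3-day-old arrays.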
